A study of Mus musculus with 15 samples.

Results

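Expression of 10 genes that mark intestinal tuft cells was followed in the cecum of mice whose gut bacteria had been depleted with antibiotics: Dclk1, Trpm5, Tas1r3, Sucnr1, Avil, Pou2f3, Gfi1b, Alox5ap, Il17rb and Il25. They were chosen by name, and all 10 were found among the 45808 rows of the expression table. The tissue came from wild-type (WT) male C57BL/6 mice that had received gavage for 30 days. Their labels give an age of 20 weeks, which does not match the younger starting age in the study's methods followed by 30 days of gavage. In the antibiotic-induced microbiome-depleted (AIMD) group, 7 mice were given ampicillin, vancomycin, metronidazole and neomycin together with the antifungal amphotericin B, and in the vehicle group, 8 mice were given water. Every mouse was a separate sample, the cecum was emptied before RNA was taken from the whole wall, and cage mates were not named in the labels. The antibiotics can also act on the host directly, and this design cannot tell that apart from the loss of bacteria.

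Tuft cells are rare chemosensory cells of the gut epithelium. In the small intestine they detect luminal metabolites such as succinate through the receptor Sucnr1, signal through a taste-like cascade that ends in the cation channel Trpm5, and release interleukin-25 and cysteinyl leukotrienes. Interleukin-25 acts on group 2 innate lymphoid cells, whose interleukin-13 in turn makes epithelial progenitors produce more tuft and goblet cells. Pou2f3 is the transcription factor that tuft cells need to form.

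The values are FPKM, in which the reads of a gene are divided by the length of the gene and the depth of the library, so levels can be compared between genes. Reads recovered from the steps of the FPKM numbered 8679672 to 18108573 in the AIMD mice and 4372409 to 14405935 in the vehicle mice. Differences between the groups are log2 fold changes (AIMD minus vehicle) of log2(FPKM + 0.5) by limma, with an adjusted p under 0.05 taken as changed. On this scale the changes of low genes are understated. A model of the recovered reads themselves (limma voom) is given beside it for the members and, among the other tuft cell and type 2 genes that were called, wherever it moved the value by over 1.5 times. A gene passed the filter on low values where 7 or more mice had an FPKM of 0.5 or above, and a gene that failed it was tested in the same model without the filter. One vehicle mouse, replicate 8, stood apart from the rest, since it had the fewest reads and the highest summed level of smooth muscle markers (2201, against 399 to 1057 in the other vehicle mice) and of neuron and glia markers (81.5, against 5.43 to 24.9). Values that rest on it are therefore also given without it.

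Alox5ap was the member with the highest level. It encodes the protein that presents arachidonic acid to 5-lipoxygenase, the first step to leukotrienes, and other immune cells use it too. Its mean was 1.57 ± 0.718 FPKM (SD, n = 8) in vehicle mice, and 62.1% of all genes above 0 had a lower mean. Then came 5 members between 0.3 and 0.5 FPKM in vehicle mice, in the order Dclk1, Trpm5, Il17rb, Pou2f3 and Avil, with means of 0.479, 0.399, 0.355, 0.324 and 0.309. Sucnr1 followed at 0.143 ± 0.112, Gfi1b at 0.079 ± 0.135, Il25 at 0.0266 ± 0.0531 and Tas1r3 at 0.0233 ± 0.0363 (SD, n = 8). Every step between neighbours below Alox5ap was smaller than the SD of the upper gene, so the order of neighbours is not resolved. Of the members, Alox5ap alone passed the filter on low values. These are levels in the whole cecal wall, in which epithelial markers such as Epcam reached 1635 ± 174 FPKM (SD, n = 8).

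**Figure D1:**
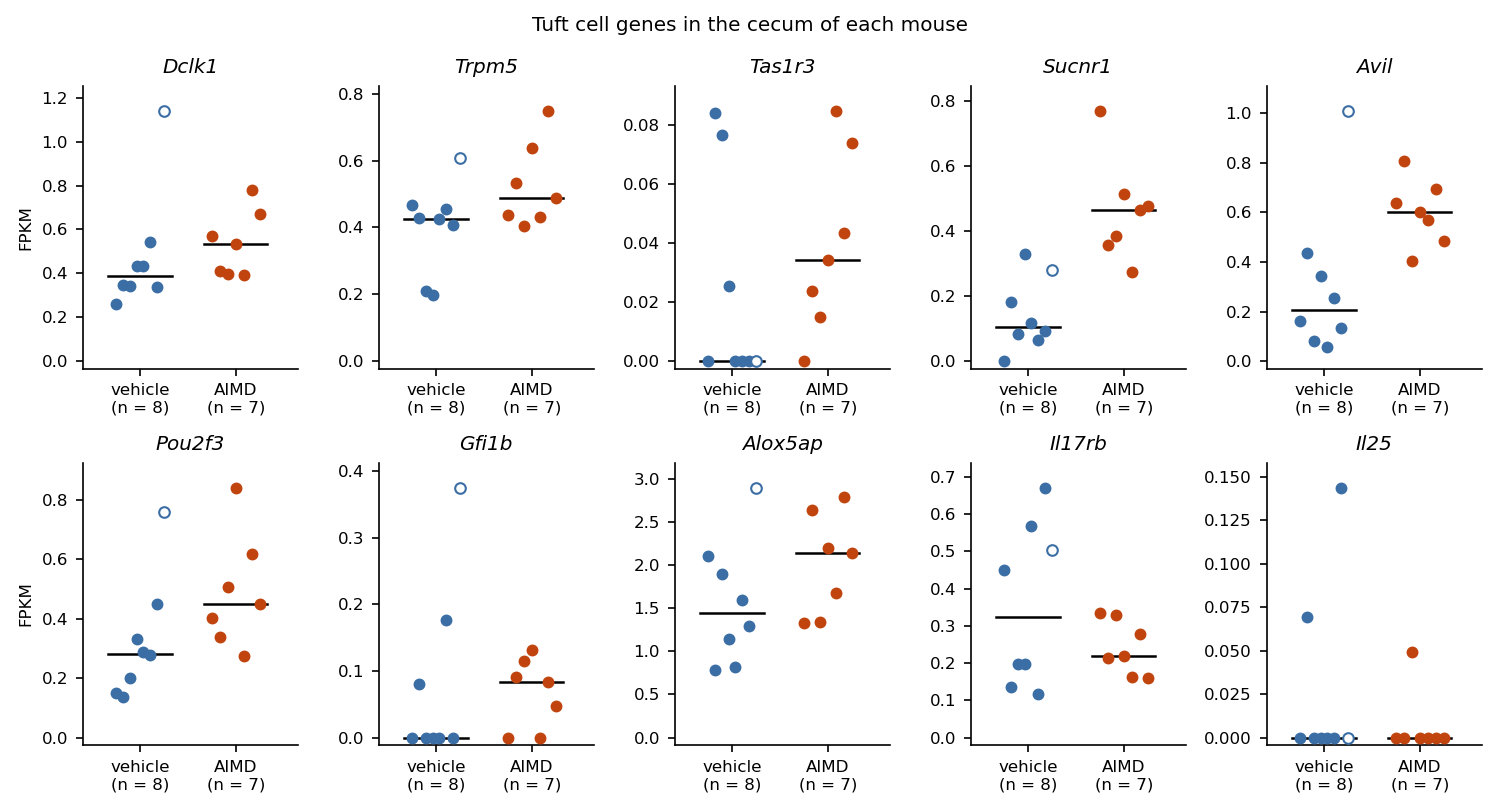
FPKM of each member in each mouse, by group (blue, vehicle, n = 8; red, AIMD, n = 7). Each point is 1 mouse, the black line is the group median, the open circle is vehicle replicate 8, and the vertical scale differs between panels. For Sucnr1, 6 of the 7 AIMD mice lie above every vehicle mouse, and for Dclk1, Gfi1b, Alox5ap, Avil and Il17rb the open circle lies above every AIMD mouse.

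Sucnr1, the succinate receptor, was the member whose RNA rose. The gene lies on the plus strand of chromosome 3, from 60081869 to 60087566 (GRCm38), and reads were summed over its exons. Its FPKM ran from 0.273 through a median of 0.464 to 0.768 in the AIMD mice and from 0 through 0.106 to 0.329 in the vehicle mice. The groups overlapped narrowly, since 6 of 7 AIMD mice lay above the highest vehicle mouse and 6 of 8 vehicle mice lay below the lowest AIMD mouse. The mean of 0.462 ± 0.158 (SD, n = 7) was 3.22 times the 0.143 ± 0.112 (SD, n = 8) of vehicle mice. This gave a log2 fold change of 0.58 (SE 0.12, limma without a filter, adjusted p = 0.00372). The same comparison gave 1.60 (SE 0.41, adjusted p = 0.00594) with limma voom, and an adjusted p of 0.0145 with an exact rank-sum test. The measurement rests on few molecules, 73 reads over the 7 AIMD mice and 16 over the 8 vehicle mice. Leaving out any 1 mouse kept the log2 fold change between 0.51 and 0.63, with adjusted p of at most 0.00892. In bulk tissue, a difference in the number of cells and a difference in RNA per cell cannot be told apart.

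Among the 9 members that failed the filter on low values, Sucnr1 was the 1 called higher and 0 were called lower. Over all 12308 genes that failed it, 3.82% were called higher and 1.89% lower in the fit without a filter. Alox5ap, in the fit with the filter, was not called, where 19.4% of 11971 genes were called higher and 16.6% lower. The median log2 fold change of the 10 members was 0.15, against 0.00 over all 24279 genes above 0. These shares and medians describe the genes and do not set the members apart from others of like level.

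The study's own model held the time of sacrifice as a second factor, which the labels do not give. The genes of the circadian clock (Arntl, Npas2, Clock and Nfil3 against Per1, Per2, Per3, Nr1d1, Nr1d2, Dbp, Tef and Ciart) divided the mice into 2 sets, AIMD replicates 1 to 3 with vehicle replicates 1 to 4 (set A), and AIMD replicates 4 to 7 with vehicle replicates 5 to 8 (set B). Sucnr1 averaged 0.503 FPKM in 3 AIMD mice and 0.148 in 4 vehicle mice of set A, and 0.431 in 4 AIMD mice and 0.139 in 4 vehicle mice of set B. Its log2 fold change was 0.63 (SE 0.21, limma adjusted p = 0.137) in set A and 0.54 (SE 0.14, limma adjusted p = 0.0533) in set B, so that the direction was shared and neither set passed the threshold alone. With the clock axis as a covariate it was 0.58 (limma adjusted p = 0.00388).

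Upstream sequence was examined because Pou2f3 belongs to the POU factors, which bind the octamer ATGCAAAT. The 250 bases before the annotated start were available from RefSeq (GRCm38.p6) for 7 of the 10 members, as 8 windows, and Pou2f3, Il25 and Alox5ap had none. The octamer, read on both strands (ATTTGCAT on the other), occurred in 1 of the 8 windows, that of Sucnr1, where it lies 48 to 41 bases before the start. Over 66 windows of 53 genes among the members and the other tuft cell genes that were listed, 7 held it, and over all 32851 windows of the mouse genome 526 did, or 1.60%. Besides Sucnr1 these were Hpgds, 1810046K07Rik, Kctd12, Itpr3, Tas2r108 and Tas2r135. Of these 7 genes 3 were called higher. Hpgds was called in the fit with the filter, where 19.4% of genes were higher. Sucnr1 and 1810046K07Rik failed the filter, as did genes of which 3.82% were called higher. Kctd12 was at 0.33 (limma adjusted p = 0.359), Itpr3 at -0.09 (limma adjusted p = 0.609), and Tas2r108 and Tas2r135 had 1 and 0 reads. Whether genes with the octamer rose more often than genes without it was not tested. A match of letters is not evidence that a factor binds there. The windows of Sucnr1 (chr3:60081619-60081868, plus strand), Hpgds (chr6:65144731-65144980, minus strand) and 1810046K07Rik (chr9:51328919-51329168, minus strand) are shown because these 3 genes had the octamer and were called higher, and that of Gnat3 (chr5:17962320-17962569, plus strand) because Gnat3 had the largest rise among tuft cell genes and no octamer. Each is written 5′ to 3′ on the strand of the gene, and capitals mark the octamer.
Sucnr1: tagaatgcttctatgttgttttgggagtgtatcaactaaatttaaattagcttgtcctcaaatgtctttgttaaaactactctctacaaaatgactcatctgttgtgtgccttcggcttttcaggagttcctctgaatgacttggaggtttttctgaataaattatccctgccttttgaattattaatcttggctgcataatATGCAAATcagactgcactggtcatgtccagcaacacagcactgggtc
Hpgds: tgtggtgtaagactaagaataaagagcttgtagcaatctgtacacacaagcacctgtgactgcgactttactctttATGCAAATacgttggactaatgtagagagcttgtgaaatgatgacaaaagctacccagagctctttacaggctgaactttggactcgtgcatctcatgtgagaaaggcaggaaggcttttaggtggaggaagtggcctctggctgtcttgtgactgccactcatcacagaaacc
1810046K07Rik: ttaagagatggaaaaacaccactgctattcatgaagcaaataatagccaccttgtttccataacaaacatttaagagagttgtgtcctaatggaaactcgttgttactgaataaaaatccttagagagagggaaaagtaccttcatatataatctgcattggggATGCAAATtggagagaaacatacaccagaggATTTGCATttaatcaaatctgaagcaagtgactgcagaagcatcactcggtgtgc
Gnat3: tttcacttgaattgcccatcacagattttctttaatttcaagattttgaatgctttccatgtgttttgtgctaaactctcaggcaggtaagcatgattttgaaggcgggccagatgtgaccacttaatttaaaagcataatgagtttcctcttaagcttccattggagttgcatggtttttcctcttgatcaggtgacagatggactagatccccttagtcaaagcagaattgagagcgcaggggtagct

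Avil (chromosome 10, 127000709 to 127020994) encodes advillin, an actin-binding protein of the tuft cell's apical bundle that sensory neurons also make. Its FPKM ran from 0.403 through 0.601 to 0.809 in AIMD mice and from 0.057 through 0.207 to 1.01 in vehicle mice. Apart from vehicle replicate 8, at 1.01, which lay above all 7 AIMD mice, the vehicle mice reached at most 0.435, and 6 of 8 lay below the lowest AIMD mouse. Its log2 fold change was 0.51 (SE 0.18, limma without a filter, adjusted p = 0.0681), which missed the threshold. It was 0.64 (limma adjusted p = 0.00249) without vehicle replicate 8, and 1.27 (SE 0.37, adjusted p = 0.015) with limma voom on all mice. With limma voom, Sucnr1 and Avil were thus the 2 of 9 members called higher, where 14.1% of 17935 genes were called higher and 13.9% lower. The means rested on 190 reads in AIMD mice and 66 in vehicle mice.

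**Figure D2:**
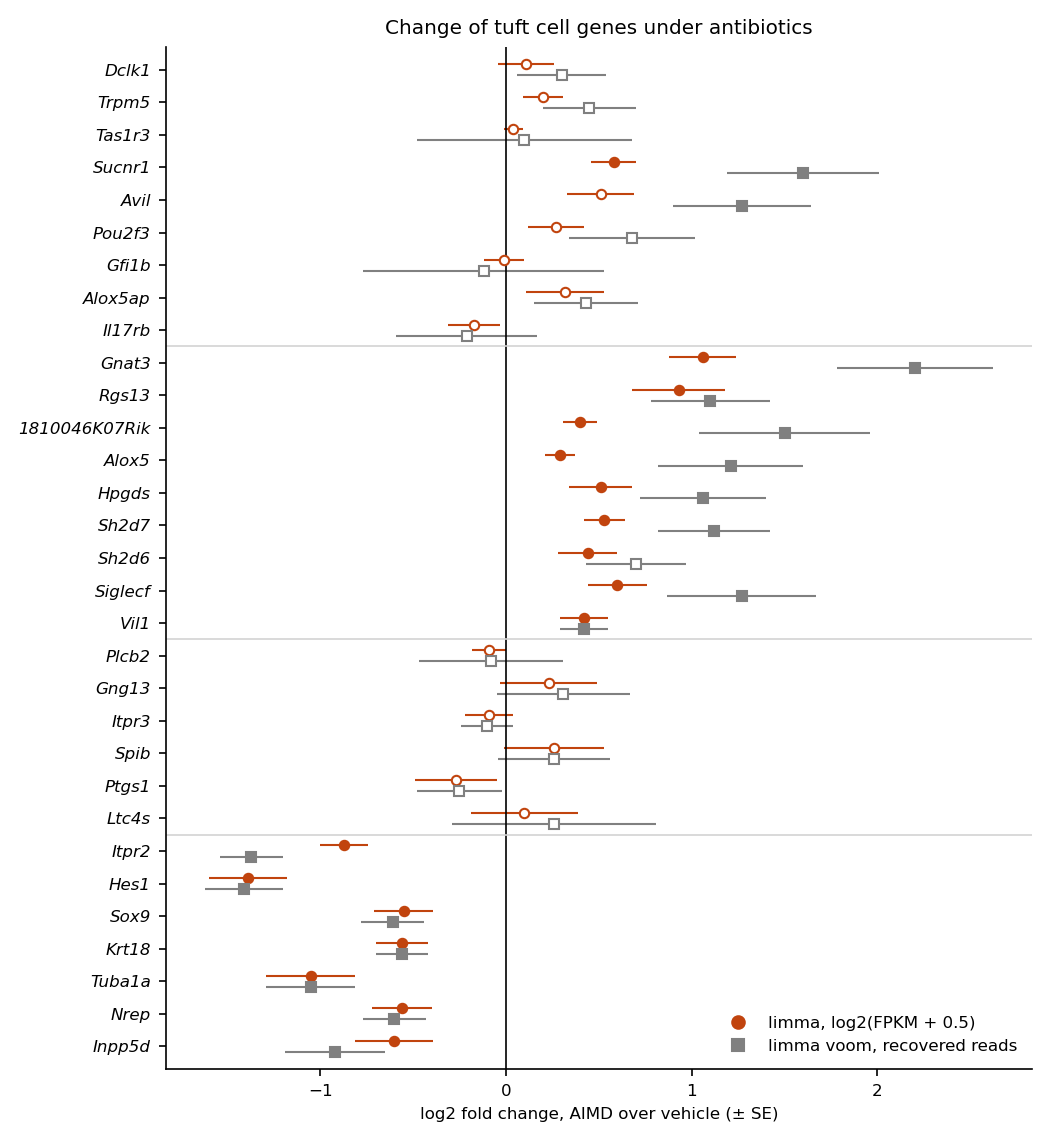
Log2 fold change (AIMD over vehicle, ± SE) of 9 members and of 22 other tuft cell genes, by limma on log2(FPKM + 0.5) (red circles) and by limma voom on recovered reads (grey squares). Filled symbols have an adjusted p under 0.05, and grey lines separate the members, 9 other genes called higher, 6 not called and 7 called lower. Sucnr1 is the only member filled in both fits, and the low genes lie further from 0 on the read scale than on the FPKM scale.

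Trpm5, the cation channel that depolarizes the cell (chromosome 7, 143069153 to 143094642), was detected in every mouse. It ran from 0.403 through 0.488 to 0.749 FPKM in AIMD mice and from 0.197 through 0.426 to 0.607 in vehicle mice. The groups overlapped, and vehicle replicates 3 and 4 lay below all other mice. A log2 fold change of 0.20 (SE 0.11, limma adjusted p = 0.272) did not pass the threshold, nor did 0.45 (SE 0.25, adjusted p = 0.187) with limma voom.

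Dclk1, a microtubule-associated kinase that is the usual tuft cell marker and is also made by neurons (chromosome 3, 55242364 to 55539068), was the member with the most reads, 766 in AIMD and 435 in vehicle mice. It ran from 0.390 through 0.534 to 0.781 FPKM in AIMD mice and from 0.258 through 0.389 to 1.14 in vehicle mice. The highest vehicle value was again that of replicate 8, above all 7 AIMD mice, and no other vehicle mouse exceeded 0.541. Dclk1 thus had a log2 fold change of 0.11 (SE 0.15, limma adjusted p = 0.646), and with each mouse left out it lay between 0.06 and 0.22, the latter without vehicle replicate 8 (limma adjusted p = 0.167). With limma voom it was 0.30 (SE 0.24, adjusted p = 0.369). Tas1r3, a subunit of the sweet and umami taste receptors (chromosome 4, 155859268 to 155863362), was covered by 12 reads in AIMD and 7 in vehicle mice, with 0 reads in 1 AIMD mouse and 5 vehicle mice. At this depth no difference in Tas1r3 was detectable (log2 fold change 0.04, SE 0.05, limma adjusted p = 0.545, and 0.10, SE 0.58, adjusted p = 0.922 with limma voom).

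Of the transcription factors, Pou2f3 (chromosome 9, 43123939 to 43210369) ran from 0.275 through 0.448 to 0.841 FPKM in AIMD mice and from 0.136 through 0.282 to 0.758 in vehicle mice. Its groups overlapped, with vehicle replicate 8 the highest vehicle mouse. The log2 fold change was 0.27 (SE 0.15, limma adjusted p = 0.246), or 0.37 (adjusted p = 0.0557) without that mouse. It was 0.68 (SE 0.34, adjusted p = 0.138) with limma voom. Gfi1b, a zinc-finger repressor found in tuft cells and in megakaryocyte and erythroid cells (chromosome 2, 28609450 to 28621982), had 11 reads in AIMD and 8 in vehicle mice. It was listed at 0 in 2 AIMD and 5 vehicle mice and was highest in vehicle replicate 8, at 0.375 FPKM from 3 reads. Its log2 fold change of -0.01 (SE 0.11, limma adjusted p = 0.973) turned to 0.08 without that mouse and to 0.10 with a pseudocount of 0.1, and was -0.12 (SE 0.65, adjusted p = 0.913) with limma voom, so no direction can be given.

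Among the genes for the products of tuft cells and their receptor, Alox5ap (chromosome 5, 149264767 to 149288153) ran from 1.33 through 2.14 to 2.79 FPKM in AIMD mice and from 0.781 through 1.44 to 2.90 in vehicle mice, and the highest mouse of all was vehicle replicate 8. Its log2 fold change was 0.32 (SE 0.21, limma adjusted p = 0.236), or 0.43 (limma adjusted p = 0.0749) without that mouse. With limma voom on all mice it was 0.43 (SE 0.28, adjusted p = 0.26). Il17rb, a chain of the interleukin-25 receptor that lymphoid cells also carry (chromosome 14, 29996135 to 30008896), ran from 0.159 through 0.220 to 0.336 FPKM in AIMD mice and from 0.118 through 0.323 to 0.672 in vehicle mice. The vehicle mice spread widely, and all 7 AIMD mice lay within their range. The log2 fold change was -0.17 (SE 0.14, limma adjusted p = 0.487), and -0.21 (SE 0.38, adjusted p = 0.718) with limma voom. Il25 itself (chromosome 14, 54932695 to 54935837) was nearly undetected, with 1 read in AIMD mice (replicate 3) and 2 reads in vehicle mice (replicates 2 and 7), so no fold change is given.

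The mice with more Trpm5 were compared with those with more of another member, over all 15 mice after centring within the groups. Pearson's r with Trpm5 was 0.53 for Dclk1 (Spearman's rho 0.41), 0.47 for Pou2f3 (0.31), 0.47 for Alox5ap (0.48), 0.46 for Avil (0.34), 0.32 for Il17rb (0.30) and -0.06 for Sucnr1 (0.04). None of the 6 relations passed, with a smallest permutation p of 0.0645 for r and 0.0827 for rho (100000 permutations, two-sided), or 0.204 and 0.378 after Benjamini–Hochberg adjustment. Within the clock sets, r for Dclk1 was -0.51 over the 7 mice of set A and 0.78 over the 8 of set B, for Pou2f3 -0.73 and 0.80, for Sucnr1 -0.46 and 0.75, for Avil 0.33 and 0.66, for Alox5ap 0.14 and 0.73, and for Il17rb 0.28 and 0.23. The values were not centred again within each set, so a difference between AIMD and vehicle mice of a set remains in its r. The difference between the sets was not tested. Set B includes vehicle replicate 8, without which the pooled r was 0.33 for Dclk1, 0.28 for Pou2f3, 0.30 for Alox5ap, 0.20 for Avil, 0.23 for Il17rb and -0.26 for Sucnr1. Without vehicle replicates 3 and 4, the 2 mice farthest from the median of Trpm5, r was 0.62 for Dclk1, 0.57 for Pou2f3, 0.68 for Alox5ap, 0.53 for Avil, 0.18 for Sucnr1 and 0.08 for Il17rb.

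**Figure D3:**
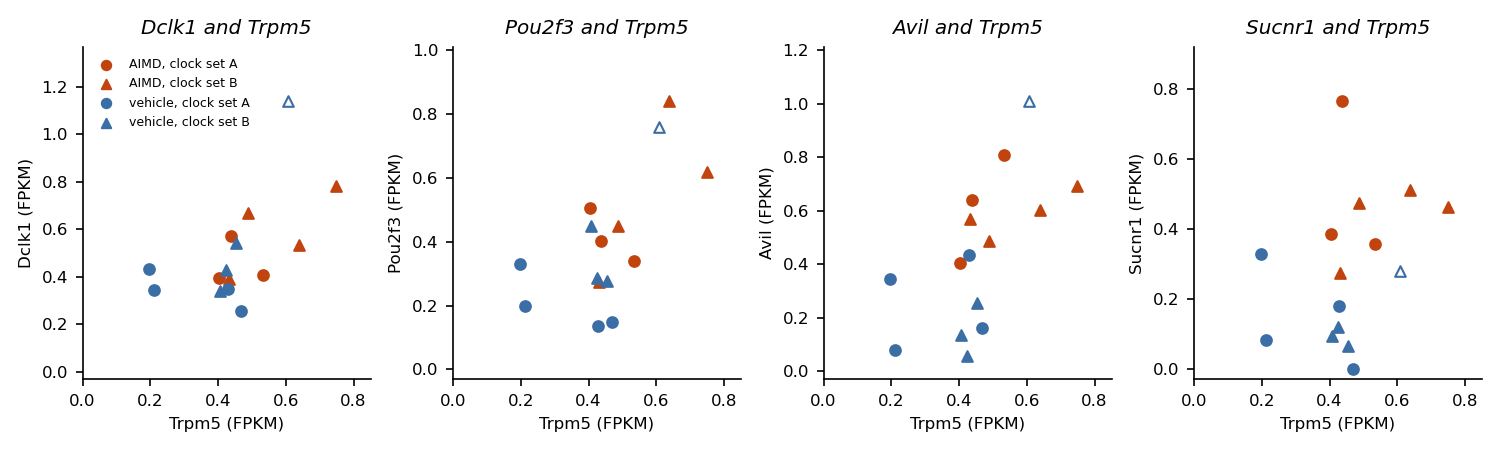
FPKM of Dclk1, Pou2f3, Avil and Sucnr1 (vertical) against Trpm5 (horizontal), 1 point per mouse. Colour gives the group (red, AIMD, n = 7; blue, vehicle, n = 8), circles and triangles give clock sets A (7 mice) and B (8 mice), and the open triangle is vehicle replicate 8. The highest Dclk1 and Avil values are those of the open triangle, and the AIMD mice form the upper points for Sucnr1 at most levels of Trpm5.

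Other listed genes that tuft cells use moved in both directions, and the list includes genes that other cells of the wall also make. Krt18 and Hes1, which fell, had vehicle means of 155 and 91.1 FPKM, and Vil1, which rose, 177, far above any member. Such changes do not describe tuft cells alone. Of 54 listed genes, 33 passed the filter, of which 5 rose, 7 fell and 21 did not pass the test, against backgrounds of 19.4% higher and 16.6% lower. The counts among the 33 lie near these backgrounds. A further 17 failed the filter, of which 5 were called higher and 0 lower, against backgrounds of 3.82% and 1.89%. These backgrounds include genes with very few reads and are not matched by level, so they do not set the 17 apart. The remaining 4, taste receptor genes (Tas1r2, Tas2r135, Tas2r138 and Tas2r143), had 0 reads in every mouse. The median log2 fold change of the 33 was 0.10, against 0.01 over all genes that passed the filter. With limma voom 9 of the 45 genes tested were called higher and 7 lower, near the shares of 14.1% and 13.9% over all genes.

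Gnat3, the G protein alpha subunit gustducin, which couples taste receptors to Trpm5, changed most among the chemosensory genes. Its FPKM ran from 0.464 through 0.765 to 1.59 in AIMD mice and from 0 through 0.166 to 0.397 in vehicle mice. The groups did not overlap, which held for 0.894% of the genes that failed the filter. The mean was 0.932 ± 0.437 (SD, n = 7) against 0.172 ± 0.141 (SD, n = 8), a ratio of 5.41 (log2 fold change 1.06, SE 0.18, limma without a filter, adjusted p = 0.00119) from 120 and 16 reads. With limma voom the log2 fold change was 2.20 (SE 0.42, adjusted p = 0.000721). Rgs13, a regulator of G protein signalling, rose from 1.52 ± 0.634 (SD, n = 8) to 3.39 ± 1.50 FPKM (SD, n = 7), a log2 fold change of 0.93 (limma adjusted p = 0.00767). B lymphocytes of germinal centres also make Rgs13, and their part in its rise was not tested.

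The steps of the cascade after Gnat3 did not pass the test. Plcb2, the phospholipase that gustducin's partners activate, had a log2 fold change of -0.09 (SE 0.09, limma adjusted p = 0.549). Gng13, a gamma subunit, had 0.23 (SE 0.26, adjusted p = 0.517 by limma), and Itpr3, the calcium channel between Plcb2 and Trpm5, -0.09 (SE 0.13, adjusted p = 0.609 by limma). Itpr2, a related channel with wide expression, fell by 0.87 on the log2 scale (limma adjusted p = 7.97e-05) and with limma voom by 1.37 (adjusted p = 1.2e-05). All 7 AIMD mice lay below the lowest vehicle mouse, and the share of such genes among those that passed the filter was not counted.

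Among the transcription genes, 1810046K07Rik, which encodes a coactivator of Pou2f3 (OCA-T1), was called higher. It ran from 0.0836 through 0.259 to 0.371 FPKM in AIMD mice and from 0 through 0.047 to 0.150 in vehicle mice, with 34 and 6 reads and 4 vehicle mice at 0. The log2 fold change was 0.40 (SE 0.09, limma adjusted p = 0.00875), while the exact rank-sum test missed the threshold (adjusted p = 0.0544) and limma voom gave 1.50 (SE 0.46, adjusted p = 0.0185). Hes1, the Notch target that represses secretory fates, fell by 1.39 on the log2 scale (limma adjusted p = 0.000139), and Sox9, a progenitor factor also found in tuft cells, fell by 0.55 (limma adjusted p = 0.0126). Spib, a factor of tuft and M cells, was at 0.26 (limma adjusted p = 0.462).

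Of 6 eicosanoid enzymes, 2 were called higher and 0 lower. Of the 4 that passed the filter 1 was called higher, against a background of 19.4%. Of the 2 that failed it 1 was called higher, against 3.82%, and so few genes do not set the list apart. Ptges, which also failed the filter, was at -0.26 (SE 0.12, limma adjusted p = 0.169), and at -0.62 with limma voom (adjusted p = 0.104). Alox5, 5-lipoxygenase, ran from 0.181 through 0.231 to 0.408 FPKM in AIMD mice and from 0 through 0.099 to 0.223 in vehicle mice, and 7 of 8 vehicle mice lay below the lowest AIMD mouse. The means had a ratio of 2.24, and the log2 fold change was 0.29 (SE 0.08, limma adjusted p = 0.0168), or 1.21 (SE 0.39, adjusted p = 0.0258) with limma voom. Hpgds, the hematopoietic prostaglandin D synthase, rose from 0.383 ± 0.203 (SD, n = 8) to 0.757 ± 0.307 FPKM (SD, n = 7), with a log2 fold change of 0.51 (limma adjusted p = 0.0285) and of 1.06 with limma voom (adjusted p = 0.0255). Hpgds passed the filter mostly through the AIMD mice. It was not called by limma without a filter (adjusted p = 0.0512) or by the exact rank-sum test (adjusted p = 0.117 without a filter). Ptgs1, cyclooxygenase 1, which fibroblasts and platelets also make, was at -0.27 (SE 0.22, limma adjusted p = 0.354), and Ltc4s, leukotriene C4 synthase, at 0.10 (SE 0.29, limma adjusted p = 0.811).

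Of the signalling genes that tuft cells share with immune cells, Sh2d7, Siglecf and Sh2d6 were among those called higher. Sh2d7 ran from 0.405 through 0.601 to 0.740 FPKM in AIMD mice and from 0.0986 through 0.252 to 0.507 in vehicle mice, a log2 fold change of 0.53 (SE 0.11, limma adjusted p = 0.00463) and 1.12 with limma voom (adjusted p = 0.0081). Siglecf, a sialic acid receptor of tuft cells and eosinophils, had a log2 fold change of 0.60 (limma adjusted p = 0.0192) and 1.27 with limma voom (adjusted p = 0.0217). Sh2d6 had 0.44 (limma adjusted p = 0.034) and was not called with limma voom (0.70, adjusted p = 0.0607) or with the exact rank-sum test. Inpp5d, a phosphatase chiefly of blood cells, fell by 0.60 (limma adjusted p = 0.0318) and with limma voom by 0.92 (adjusted p = 0.0159), but was not called with the exact rank-sum test (adjusted p = 0.0941 without a filter). Of the cytoskeletal genes, Vil1, villin of all brush borders, rose by 0.42 (limma adjusted p = 0.0195), and Krt18, Tuba1a and Nrep fell by 0.56, 1.05 and 0.56 on the log2 scale (limma adjusted p = 0.00569, 0.00335 and 0.0109).

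**Figure D4:**
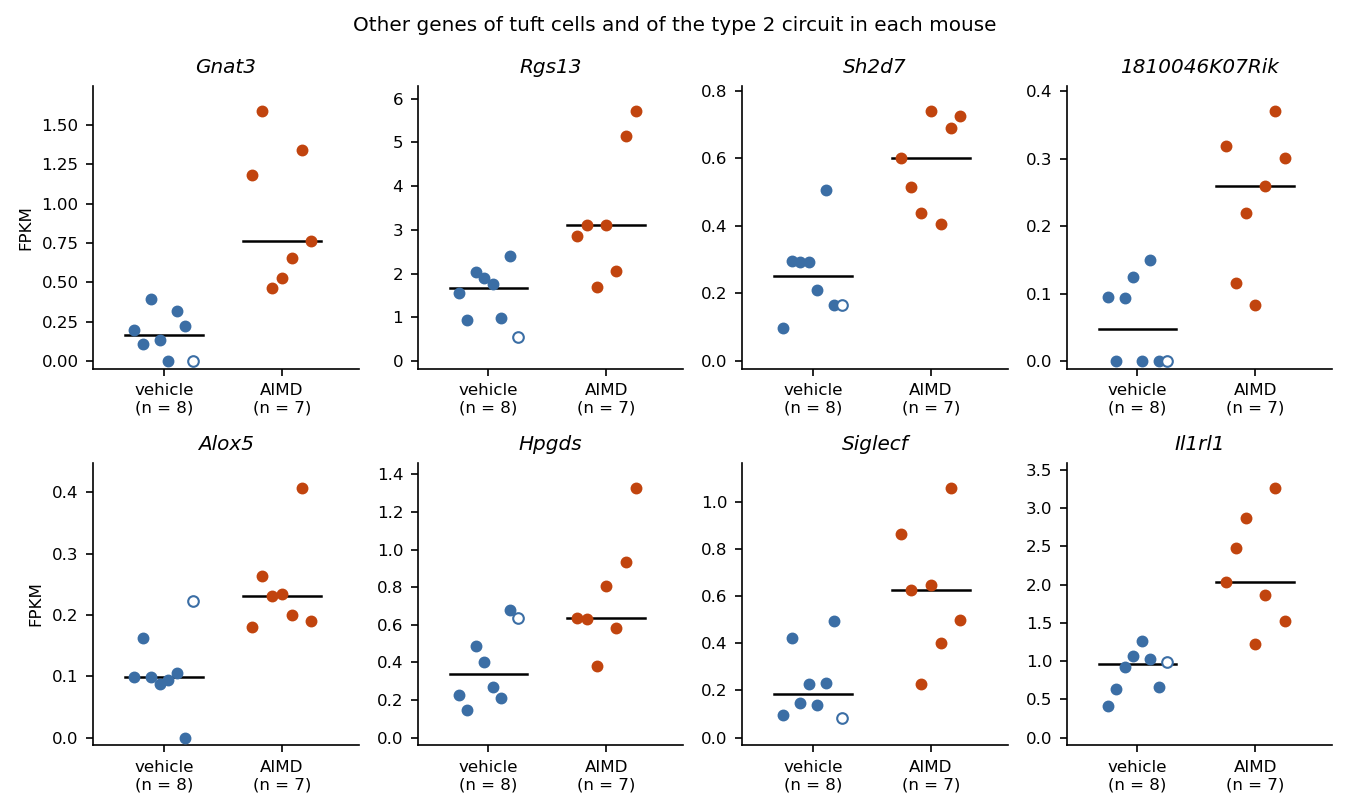
FPKM of 7 other tuft cell genes and of Il1rl1 in each mouse (blue, vehicle, n = 8; red, AIMD, n = 7). Each point is 1 mouse, black lines are medians, the open circle is vehicle replicate 8, and vertical scales differ. For Gnat3 all AIMD mice lie above all vehicle mice, and for Gnat3, Rgs13 and Siglecf vehicle replicate 8 is at the bottom of its group.

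Of the type 2 circuit around tuft cells, 26 genes were listed. Of the 17 that passed the filter 6 were called higher and 1 lower, against backgrounds of 19.4% and 16.6%. Of the 7 that failed it 2 were called higher and 0 lower, against 3.82% and 1.89%. The 6 include the near-identical copies Sprr2a1, Sprr2a2 and Sprr2a3. Sprr2a1 passed the filter only through the AIMD mice, since its highest vehicle mouse had 0.272 FPKM. Sprr2a2 passed mainly through them, with every AIMD mouse at 0.778 FPKM or above and a vehicle median of 0.269 (highest 0.55). The backgrounds are not matched by level either, so these counts do not set the type 2 genes apart. Il13 and Il9 had 0 reads in all 15 mice, which allows up to 3 of the 154715580 reads of both groups. Il4 had 1 read in AIMD and 3 in vehicle mice, and Il5 had 1 and 0. The cytokines by which lymphoid cells answer interleukin-25 were thus not measurable at this depth. Il1rl1, the interleukin-33 receptor, rose from 0.872 ± 0.278 (SD, n = 8) to 2.18 ± 0.733 FPKM (SD, n = 7), with a log2 fold change of 0.94 (limma adjusted p = 0.000732). Il33 itself was at 0.01 (SE 0.21, limma adjusted p = 0.982), Tslp at -0.11 (SE 0.20, limma adjusted p = 0.728) and Il4ra, which receives interleukin-4 and interleukin-13, at 0.18 (SE 0.18, limma adjusted p = 0.468). Il7r, Areg and Klrg1, which lymphoid cells carry and, for amphiregulin, epithelium too, had log2 fold changes of 0.84, 1.00 and 0.30 (limma adjusted p = 0.00531, 0.00473 and 0.015). With limma voom Il7r was at 2.11 (adjusted p = 0.00456) and Klrg1, from 20 and 3 reads, at 1.31 (adjusted p = 0.0369). Gata3 and Rora, transcription factors of group 2 innate lymphoid cells and of other cells, had log2 fold changes of -0.24 and -0.30 (limma adjusted p = 0.2 and 0.105), and -0.63 and -0.65 with limma voom (adjusted p = 0.179 and 0.051).

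Epithelial genes that type 2 cytokines can induce did not move as 1 group. Ang4, an antimicrobial angiogenin, ran from 8.13 to 22.2 FPKM in AIMD mice and from 1.34 to 3.87 in vehicle mice (log2 fold change 2.28, limma adjusted p = 8.98e-06). The groups did not overlap, and how many genes that passed the filter did the same was not counted. Sprr2a3, Sprr2a1 and Sprr2a2 rose by 1.63, 1.51 and 1.69 (limma adjusted p = 1.08e-05, 3.0e-05 and 8.65e-05), the last 2 by 3.07 and 2.95 with limma voom (adjusted p = 5.02e-05 and 0.000176), and their reads are hard to assign among near-identical copies. Retnlb, resistin-like beta of goblet cells, was at 0.19 (SE 0.51, limma adjusted p = 0.801), Clca1, another goblet cell product, at 0.40 (SE 0.20, limma adjusted p = 0.127), and Muc2, the main mucin, fell by 0.77 on the log2 scale (limma adjusted p = 0.019).

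Several of these genes are also made by other cells of the cecal wall, whose markers differed between the groups. Of 8 macrophage markers 4 rose (Lyz2, Csf1r, C1qa and Cd68) and 0 fell, where 19.4% of all genes that passed the filter rose and 16.6% fell, and Cd68 was not called with limma voom (adjusted p = 0.0713). Of the other 4, Mrc1 and C1qc were at -0.69 and -0.14 (limma adjusted p = 0.0516 and 0.683). The summed FPKM over the list, in which Lyz2 had the largest share (mean 113 in AIMD and 43.9 in vehicle mice), ran from 76.4 through 135 to 246 in AIMD mice and from 53.0 through 71.7 to 98.6 in vehicle mice. Macrophages also make Sucnr1, Alox5ap and Alox5, and the part of macrophages in the changes of these genes was not tested. Of 8 neuron and glia markers, 5 passed the filter and all 5 fell, among them Uchl1, Prph, S100b and Snap25, with sums of 3.28 through 4.49 to 6.15 in AIMD mice and 5.43 through 18.1 to 81.5 in vehicle mice. Of 5 smooth muscle markers 1 fell (Tagln), with sums of 156 through 463 to 588 and 399 through 787 to 2201. Vehicle replicate 8 was the highest of all mice in both of these lists, as it was for Dclk1, Gfi1b, Avil and Alox5ap, and how far those cells contribute to its values was not tested.

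Of 8 epithelial markers 3 rose (Krt8, Cldn7 and Cdh17) and 0 fell, against backgrounds of 19.4% higher and 16.6% lower. Cdh1 of this list was at -0.34 (limma adjusted p = 0.0998). The sums of the list were 6544 through 8947 to 10113 in AIMD mice and 5656 through 6936 to 7843 in vehicle mice. Among 6 enteroendocrine markers Chgb rose and Scg2 fell, with sums of 25.0 through 28.3 to 36.3 and 20.7 through 30.9 to 42.6. The 6 lymphocyte markers had sums of 8.19 through 15.6 to 31.0 and 14.8 through 20.0 to 35.5. Of 6 mast cell markers Cpa3 was called higher in the fit without a filter (log2 fold change 0.44, limma adjusted p = 0.0368) and not with limma voom (adjusted p = 0.0738), with sums of 1.76 through 4.98 to 7.26 and 0.970 through 3.58 to 5.22. Of 3 eosinophil markers 0 were called by limma, and Epx, which defines eosinophils, had 2 reads in AIMD and 1 in vehicle mice, with sums of 0.224 through 0.528 to 1.24 and 0.107 through 0.489 to 1.37.

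**Figure D5:**
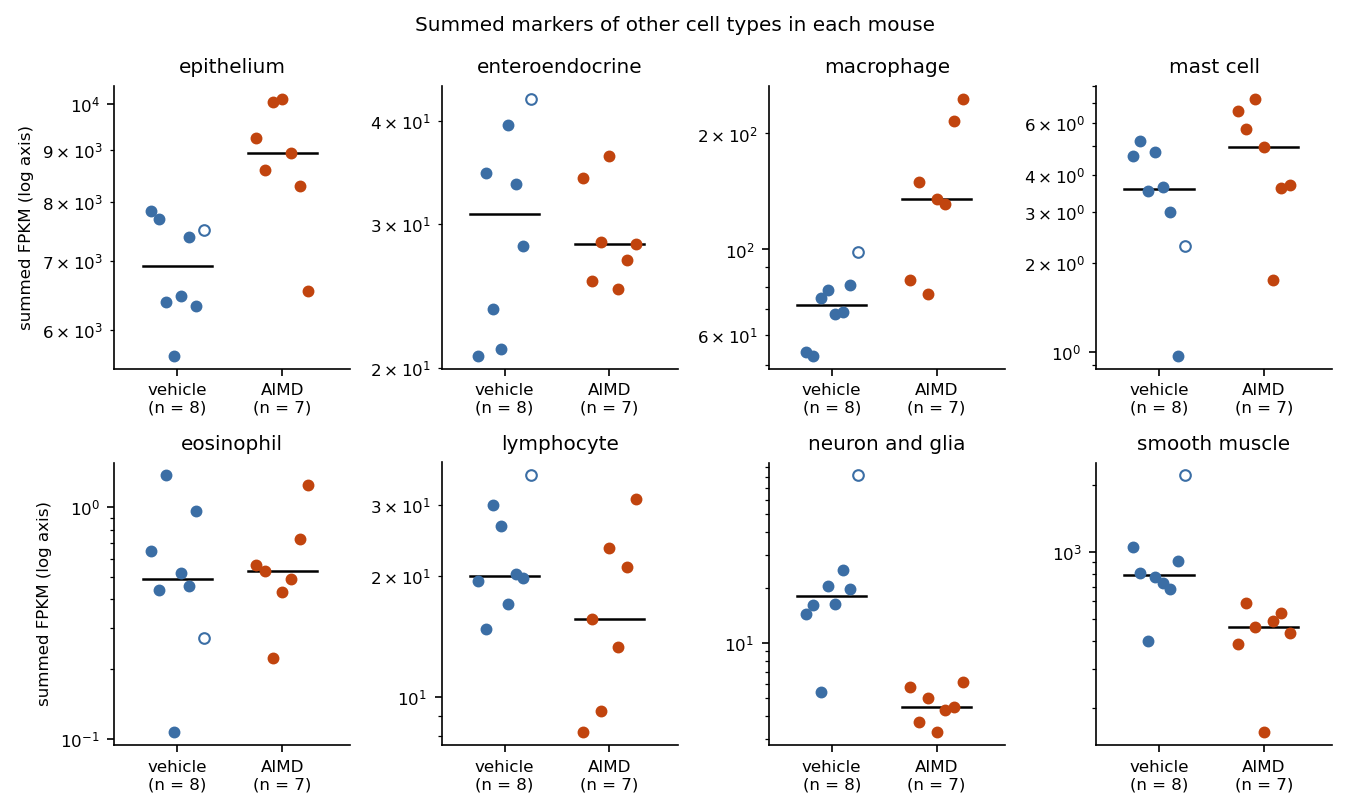
Summed FPKM of the markers of 8 other cell types in each mouse, on log axes (blue, vehicle, n = 8; red, AIMD, n = 7), with medians as black lines and vehicle replicate 8 as the open circle. The macrophage sums of AIMD mice lie mostly above those of vehicle mice, the neuron and glia sums lie mostly below, and the open circle is the highest mouse for enteroendocrine, lymphocyte, neuron and glia and smooth muscle markers.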

How the data were processed

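Cecal RNA of 7 AIMD and 8 vehicle mice was sequenced from stranded, poly-A selected libraries. The authors used STAR (genome GRCm38) and featureCounts, tested with DESeq2 and deposited FPKM for each mouse, per the submitters' processing notes and the study's methods. How counts became FPKM is not given in the sources used here. Of 45808 rows, 4 with a repeated symbol were left out, and 27 symbols had become dates. The steps of the FPKM gave whole reads (within 0.02) for 24278 of the 24279 genes above 0, 68.1% of them with the exon length of GENCODE M21, which gave the depth and the read counts. For the others, among them Pou2f3 and Il17rb, the smallest length that gave whole reads was taken. Their reads may thus be too few by a common factor. Size factors were 1.01 in every mouse, so the deposited values were already scaled alike.

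Size factors (median of ratios) divided the FPKM. limma 3.58.1 (R 4.3.3; lmFit, eBayes with a trend) was fitted to log2(FPKM + 0.5) of all 15 mice, with Benjamini–Hochberg adjustment, a threshold of 0.05, two-sided. Genes failing the filter (FPKM at least 0.5 in at least 7 mice) were taken from the same fit without a filter. Alternatives were no size factors, quantile normalization, pseudocounts of 0.1 and 1, other filters, an exact rank-sum test, limma voom on genes with at least 10 recovered reads, a replicate block, a clock-gene covariate, the clock sets and each mouse left out. limma voom with each mouse left out or with the clock covariate was added after the data were seen. Methods were tested on simulated data, with changes placed only in genes that had more reads than Sucnr1 and most other members. That test does not cover changes at the level of these members. Every member is named, with, from the other lists, the genes called (the 6 largest per list at most) and a few fixed pathway genes. Spib, Gng13, Itpr3, Ltc4s, Ptges, Kctd12, Gata3, Rora, Mrc1, C1qc, Epcam, Cdh1, Epx and the taste receptor genes at 0 were named after their values were seen. Some listed genes are not reported here, and the counts and sums include them. The members and lists were chosen with earlier results of these data known. Floors for genes at 0 use 3 reads and cover counting error only. Positions are from GENCODE M21 and RefSeq (GRCm38.p6). The other steps used scipy 1.17.1 and statsmodels 0.14.6 under Python 3.11.15.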

Additional observations from a re-analysis of the deposited data

Results flagged for a closer look

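Of the 20 groups of values (10 members in each group of mice), 2 held a mouse far from the others. Chance gives about 1 in 20 for continuous values, a rate that does not apply to groups with most mice at 0, such as Il25. For Dclk1, vehicle replicate 8, at 1.14 FPKM, was separated from the next vehicle mouse by 0.587 of the whole range of the group on the log2 scale. That mouse also had the highest neuron and glia sum (81.5) and the fewest reads, and their part in the value was not tested. For Il25, AIMD replicate 3, at 0.0495 FPKM, accounted for the whole range of its group (1.000), which is 1 read against 0 in the other 6 AIMD mice.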

How the results depend on the processing

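The number of members called higher was 1, and 2 with quantile normalization, the replicate block, limma voom or limma voom with the clock covariate, where Avil was added at log2 fold changes of 0.54 (adjusted p = 0.0244), 0.64 (0.0038), 1.27 (0.015) and 1.27 (0.013). It was 0 within each clock set, where fewer mice were tested and Sucnr1 was at 0.63 (adjusted p = 0.137) and 0.54 (0.0533). Over the mice left out in turn it was 1 to 2, with Avil at 0.44 to 0.64 and called only without vehicle replicate 8, and Sucnr1 at 0.51 to 0.63. Members called lower stayed at 0 in every alternative run. Gfi1b changed sign, to 0.01 with quantile normalization, 0.10 with a pseudocount of 0.1, 0.08 with the replicate block, 0.12 in set A and, with mice left out, over -0.03 to 0.08. Tas1r3 turned to -0.09 and Il17rb to 0.10 in set A. With limma voom and mice left out, Gfi1b ran from -0.36 to 0.26 and Tas1r3 from -0.13 to 0.50, and the cause was not tested.

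Other tuft cell genes called were 10 higher and 7 lower, with 1 higher in set A and 2 higher and 4 lower in set B. Type 2 genes were 8 higher and 1 lower, with 5 and 0 in set A, 2 lower in set B, 3 lower with the clock covariate and 1 to 2 lower over the mice left out. Over all genes that passed the filter 2322 were higher and 1993 lower, with 979 and 841 in set A and 1347 and 1174 in set B. The tuft cell and type 2 counts also include genes that failed the filter. Same-numbered mice did not deviate together (correlations of -0.35 to 0.43, over 0.1 in 2 of 7 pairs, best match in 1 of 7), so the numbers were not taken as pairs. The numbers do follow the order of the clock sets. The block joins AIMD replicate 4 of set B to vehicle replicate 4 of set A and leaves vehicle replicate 8 without a partner. Without the 2 mice farthest from the median of Trpm5, r was 0.68 for Alox5ap, 0.18 for Sucnr1 and 0.08 for Il17rb. Il25, Gfi1b, Tas1r3, Il4, Il5, Il9 and Il13 each had at most 12 reads in either group, so their values are imprecise.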
